A study of Rattus norvegicus with 14 samples.

Results

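The genes of noradrenergic innervation and adrenergic reception described here are Dbh, Th, Slc6a2, Phox2a, Gal, Npy, Adra2c and Adrb3, which are 8 of the 15154 named genes on the arrays. They were chosen with earlier results of these data known, so the shares of members that passed are not independent of that choice. Each was read from its brightest probe as the log2 background-subtracted signal minus the median of the array, so that 0 is the signal of the median probe. All 8 were measured: Th, Slc6a2, Gal and Npy were well above background, by the scanner software's own test, on all 14 arrays, Adra2c on 13, Adrb3 on 9, Dbh on 4 and Phox2a on 3.

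The tissue was choroid plexus (CP) of the lateral ventricles of Wistar rats operated at about 2 months of age and sampled 2 weeks later. The groups were 3 pools of ovariectomized (OVX) females, 3 pools of sham females, 4 pools of orchidectomized (OOX) males and 4 pools of sham males, and each array held RNA pooled from 3 animals. The labels and methods name no hormone treatment and no transgene. The methods name 3 pools per group where the labels give 4 in males, whether pools shared animals is not stated, and p-values measure the spread between pools. In pooled tissue, fewer cells of a type and less RNA per cell cannot be told apart.

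The CP is reached by sympathetic nerve fibres that release noradrenaline and often carry neuropeptide Y. The cell bodies of these neurons lie in ganglia outside the brain, while noradrenergic neurons of the brain lie in the hindbrain and often contain galanin. Th makes the precursor of dopamine from tyrosine, and Dbh converts dopamine to noradrenaline. Noradrenaline is taken back into the terminal by the transporter encoded by Slc6a2, and acts on receptors of the alpha 1, alpha 2 and beta classes.

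The promoters of the members that passed the test in females are shown, with that of Th, which did not, so that the genes can be set beside each other. Each run is the 250 bases before the annotated start in RefSeq (assembly GRCr8, a build used for these sequences and for names alone), read 5′ to 3′ on the strand of the gene. Dbh lies at chr3:30886078-30886327 on the plus strand, Th at chr1:207508219-207508468, Gal at chr1:210084573-210084822 and Adra2c at chr14:79697477-79697726, each on the minus strand. Promoters of 6 of the 8 members were in the table. Capitals mark TGACG on either strand, the shared part of the cAMP response element TGACGTCA, which contains it.
Dbh: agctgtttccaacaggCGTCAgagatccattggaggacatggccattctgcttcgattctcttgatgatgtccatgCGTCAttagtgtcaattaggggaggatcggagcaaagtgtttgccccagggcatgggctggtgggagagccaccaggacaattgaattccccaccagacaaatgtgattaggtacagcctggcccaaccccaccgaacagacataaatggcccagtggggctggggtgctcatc
Th: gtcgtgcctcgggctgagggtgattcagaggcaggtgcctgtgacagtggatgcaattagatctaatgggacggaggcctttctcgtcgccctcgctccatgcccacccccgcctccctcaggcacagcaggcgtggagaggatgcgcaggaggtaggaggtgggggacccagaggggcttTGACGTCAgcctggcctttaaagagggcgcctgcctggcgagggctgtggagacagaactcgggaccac
Gal: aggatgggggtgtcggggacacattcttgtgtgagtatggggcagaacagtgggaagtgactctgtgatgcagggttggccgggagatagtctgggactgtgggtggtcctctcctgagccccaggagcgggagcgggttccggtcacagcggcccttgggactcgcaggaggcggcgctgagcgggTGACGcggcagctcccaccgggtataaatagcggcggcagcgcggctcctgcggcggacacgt
Adra2c: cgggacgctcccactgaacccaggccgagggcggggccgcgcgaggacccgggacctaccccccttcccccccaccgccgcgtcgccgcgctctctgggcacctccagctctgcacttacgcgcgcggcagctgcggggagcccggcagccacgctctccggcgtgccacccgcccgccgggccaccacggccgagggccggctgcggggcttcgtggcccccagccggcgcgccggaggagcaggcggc
The Dbh run holds TGACG on the reverse strand at 2 places, the Gal run holds it at 1 place, and the Adra2c run holds no match. The Th run holds the whole TGACGTCA. Among 33469 rat promoter runs of this length, 18.2% hold TGACG and 1.59% hold TGACGTCA. The letters of the palindromic estrogen response element, the palindromic androgen response element, the E-box (CACGTG), the D-box (TTATGTAA) and a palindromic homeodomain dimer site were in none of these 4 runs on either strand, and are in 0.0239%, 0.0120%, 5.59%, 0.828% and 0.382% of all runs. A match is a description of letters and not a site in use.

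In females, Dbh and Gal fell after OVX and Adra2c rose, and the other 5 members did not pass the test. This was 3 of 8 members at an adjusted p under 0.05 (limma, Benjamini-Hochberg adjustment over all genes and unnamed probes), where 6.25% of all genes passed, 4.42% as lower and 1.83% as higher. The same 3 were the members with an unadjusted p under 0.05, where 20.0% of all genes had one. The 947 genes behind the 6.25% fell to between 2 and 16 when sham replicate 1 or 3 or any OVX replicate was left out, and were 951 without sham replicate 2. Every sham female array and OVX replicate 1 shared a scan day, while OVX replicates 2 and 3 were scanned on the other. Effects of OVX and of scan day in females therefore cannot be fully told apart. A fit that allowed for scan day compared OVX replicate 1 alone with the sham pools. It gave -3.52 for Dbh, -1.95 for Gal and 2.02 for Adra2c. In males 0 of 8 members passed by limma, where 0.0858% of all genes passed, and 3 of 8 (Gal, Adra2c and Adrb3) had an unadjusted p under 0.05, where 6.87% of all genes did. By the methods' t-test (a fold above 1.5 with unadjusted p under 0.05), 3 of 8 members were counted in each sex (11.1% of all genes in females and 2.34% in males), and 0 in either sex after Benjamini-Hochberg adjustment. The median log2 difference over the 8 members was 0.12 in females and 0.23 in males, beside -0.07 and 0.02 over all genes.

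**Figure D1:**
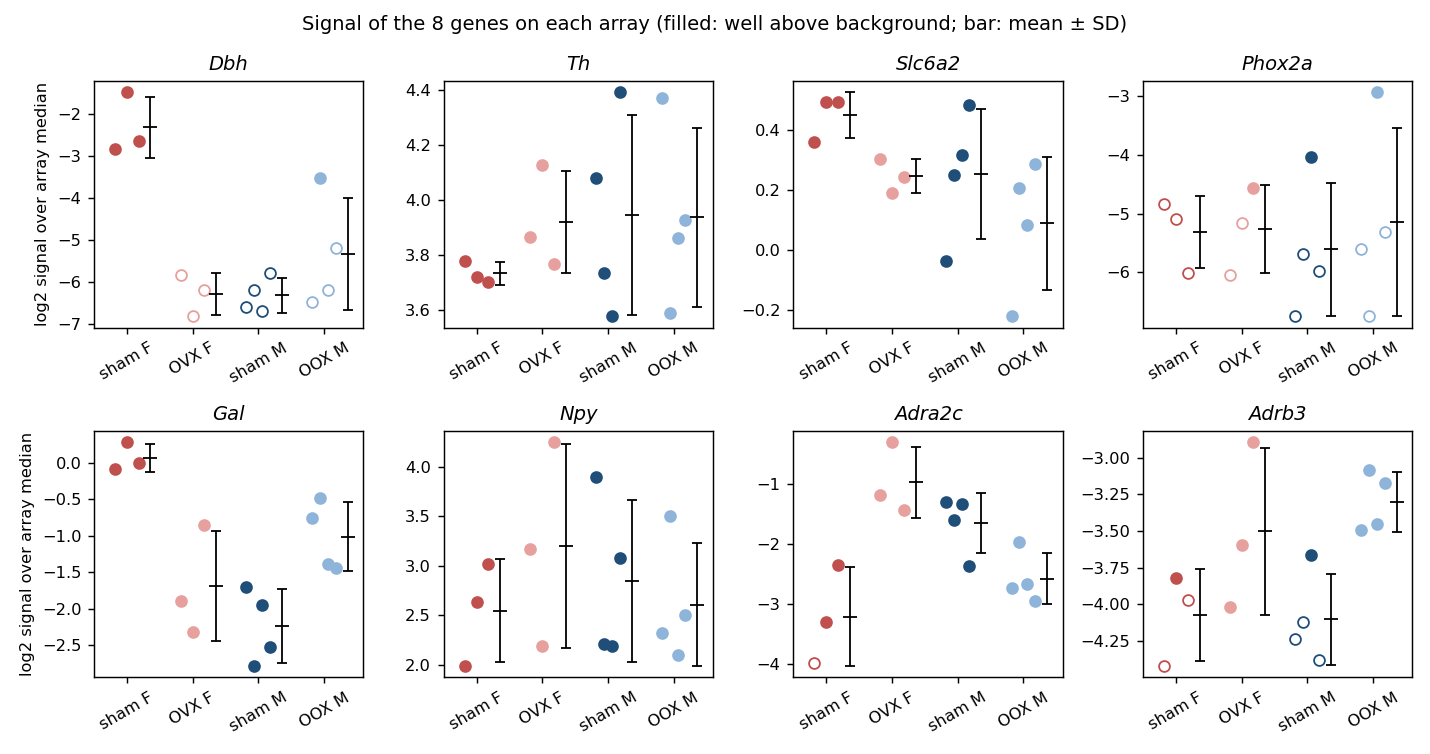
Log2 signal over the array median (vertical axis) of each of the 8 genes in sham and OVX females (3 arrays each) and sham and OOX males (4 arrays each). Filled points were well above background, open points were not, and bars are the mean ± SD. Dbh was well above background on all 3 sham female arrays and on 1 other array.

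Dbh encodes dopamine beta-hydroxylase, which converts dopamine to noradrenaline. Its log2 level was -2.82, -1.48 and -2.63 in the 3 sham female pools, all well above background, and -5.83, -6.82 and -6.20 in the 3 OVX pools, none of them above it. In sham males the levels were -6.59, -6.19, -6.70 and -5.79, none above background, and in OOX males -6.48, -3.51, -6.18 and -5.19, of which -3.51 (replicate 2) was above it. The sham females stood above every other array, and the 3 remaining groups overlapped each other. Among all genes, 8.41% were higher in sham females than in sham males without overlap, and the share above every other array was not counted. With each OVX array set at the lowest signal called well above background on it, Dbh was 5.30-fold lower in OVX than in sham females. This is not a strict lower limit, because a probe can go uncalled above that signal. The other Slc6a2 probe did so at -3.69 on sham male replicate 4, where the lowest called signal was -3.90. The fitted log2 difference of Dbh in females was -3.97 (SE 0.42, limma adjusted p = 0.0340, n = 3 and 3). The male difference was 0.98 (SE 0.60, 95% interval -0.39 to 2.34, adjusted p = 0.791), with no sham male array above background, and it was -0.085 under normexp background correction and 0.28 without sham replicate 1 and OOX replicate 2. The call in females was lost by leaving out sham replicate 1 or 3 or any OVX replicate (adjusted p from 0.0706 to 0.107) and kept without sham replicate 2 (adjusted p = 0.0282). It was also lost with slide as a block, where the only slide that held both groups gave -3.20 from 1 array each (adjusted p = 0.534), and under normexp background correction, which gave -0.78 (adjusted p = 0.101).

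Th encodes tyrosine hydroxylase, which makes the precursor of dopamine. Its log2 level was 3.78, 3.72 and 3.70 in sham females, 3.86, 4.13 and 3.77 in OVX females, 4.08, 3.74, 3.58 and 4.39 in sham males and 4.37, 3.59, 3.86 and 3.93 in OOX males. All 4 groups overlapped. The difference was 0.19 in females (95% interval -0.15 to 0.52, limma adjusted p = 0.483) and -0.01 in males (-0.54 to 0.52, adjusted p = 0.995).

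Slc6a2 encodes the noradrenaline transporter. Its log2 level was 0.36, 0.49 and 0.49 in sham females and 0.30, 0.19 and 0.24 in OVX females, with no overlap (as for 27.7% of all genes, and for 4 of the 8 members), and ran from -0.04 to 0.48 in sham males and from -0.22 to 0.28 in OOX males. The female difference of -0.20 (95% interval -0.48 to 0.07) and the male difference of -0.16 (-0.55 to 0.22) did not pass the test (limma adjusted p = 0.360 and 0.935). The other probe of the gene gave -0.81 in females (adjusted p = 0.117) and 0.23 in males (adjusted p = 0.903), so the probes disagreed in sign in males.

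Phox2a is a homeobox factor required to form noradrenergic neurons. It was above background on 1 OVX array, 1 sham male array and 1 OOX array, at log2 levels of -4.56, -4.04 and -2.94. Its differences of 0.05 in females and 0.46 in males had intervals from -1.05 to 1.16 and from -1.44 to 2.36 and did not pass (limma adjusted p = 0.960 and 0.959). Both groups of each pair were mostly below background.

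Gal encodes galanin, a neuropeptide of many brain and peripheral neurons. Its log2 level was -0.09, 0.28 and -0.0048 in sham females and -1.89, -2.31 and -0.85 in OVX females, and each sham pool stood above each OVX pool. In sham males it was -1.70, -2.78, -1.94 and -2.52 and in OOX males -0.76, -0.48, -1.38 and -1.44, and each OOX pool stood above each sham pool. Gal was 3.36-fold lower in OVX females (log2 difference -1.75, SE 0.37, limma adjusted p = 0.0450), and the difference was -1.07 under normexp background correction (adjusted p = 0.0160). In males the difference was 1.22 (SE 0.31, 95% interval 0.52 to 1.92, unadjusted p = 0.00371) and did not pass after adjustment (adjusted p = 0.437). The other probe of Gal gave -1.83 in females (adjusted p = 0.0415) and 1.21 in males (adjusted p = 0.639). The female call was lost without any 1 of the 6 pools (adjusted p from 0.0855 to 0.125) and with slide as a block, where the value was -1.89 (adjusted p = 0.526), and narrowly under scaling to the 75th percentile (adjusted p = 0.0604) and in the deposited value table (adjusted p = 0.0521). In males the only slide that held both groups gave 0.80 from 1 OOX and 2 sham arrays, and normexp background correction gave 0.55.

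Npy encodes neuropeptide Y, which is stored with noradrenaline in many sympathetic fibres. On the log2 scale its level was 1.99, 2.63 and 3.02 in sham females and 3.16, 2.19 and 4.25 in OVX females, and it ran from 2.19 to 3.90 in sham males and from 2.10 to 3.50 in OOX males. All 4 groups overlapped. The differences of 0.65 in females (95% interval -0.65 to 1.96) and -0.24 in males (-1.25 to 0.78) did not pass (limma adjusted p = 0.532 and 0.959).

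Adra2c encodes the alpha 2C receptor, which couples to inhibitory G proteins and at nerve terminals limits noradrenaline release. Its log2 level was -3.98 (not above background), -3.29 and -2.35 in sham females and -1.18, -0.31 and -1.44 in OVX females, with no overlap. In sham males it was -1.30, -1.60, -1.34 and -2.37 and in OOX males -2.72, -1.96, -2.67 and -2.94, and these groups overlapped. Adra2c was 4.69-fold higher in OVX females (log2 difference 2.23, SE 0.48, limma adjusted p = 0.0455). The male difference was -0.92 (SE 0.29, 95% interval -1.60 to -0.25, unadjusted p = 0.0128) and did not pass after adjustment (adjusted p = 0.561). The female call was lost without any 1 of the 6 pools (adjusted p from 0.0848 to 0.121), and with slide as a block, where the value was 1.16 (adjusted p = 0.534). Under normexp background correction it was 0.86 (adjusted p = 0.108) and the male value was -0.50.

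Adrb3 encodes the beta 3 receptor, which stimulates cAMP production and is best known from fat tissue. The sham female log2 levels were -4.42, -3.82 and -3.97, of which -3.82 was above background, and the OVX levels were -4.02, -3.59 and -2.89. It was -4.24, -4.12, -3.66 and -4.38 in sham males, of which -3.66 was above background, and -3.49, -3.08, -3.45 and -3.17 in OOX males, all above it. The male groups did not overlap, as for 3.99% of all genes, and Gal was the other member of which this held. The differences of 0.57 in females and 0.80 in males (95% intervals -0.19 to 1.33 and 0.37 to 1.23) did not pass (limma adjusted p = 0.351 and 0.384). Under normexp background correction the male value was -0.07, and with slide as a block the female value was -0.05, so neither direction held under every setting.

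**Figure D2:**
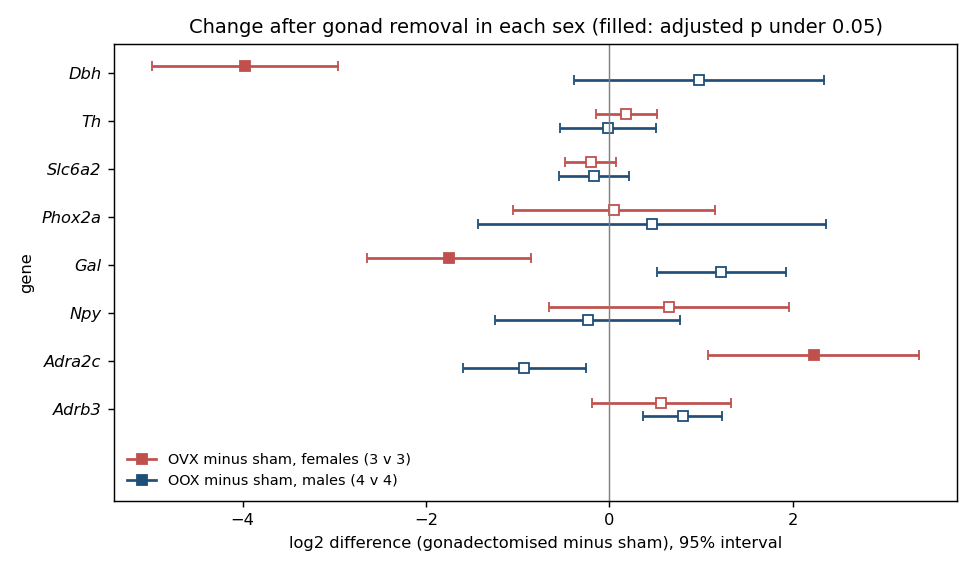
Log2 difference between gonadectomized and sham CP (horizontal axis) for each gene in females and males, with the 95% interval of the limma fit, filled where the adjusted p was under 0.05. Gal and Dbh lie below 0 in females and Adra2c lies above it, and no male value passed.

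The effects of gonad removal were then compared between the sexes in 1 fit over all arrays. The male effect minus the female effect was 2.97 for Gal (SE 0.51, limma adjusted p = 0.0398; 1.62 under normexp background correction, adjusted p = 0.00888), which passed. The Gal call was lost with its other probe (3.04, adjusted p = 0.0997), with probe means (adjusted p = 0.0612) and under scaling to the 75th percentile (adjusted p = 0.0587). With 1 array left out, the adjusted p for Gal ran from 0.0127 to 0.115. For Dbh the fitted value was 4.95 (adjusted p = 0.0373), which also passed, but 10 of its 14 values were not above background, so its size is not a measured one, and under normexp background correction it was 0.70 and did not pass (adjusted p = 0.303). This was 2 of 8 members, where 0.251% of all genes passed. For Adra2c the value was -3.15 (95% interval -4.40 to -1.91) and narrowly missed the threshold (adjusted p = 0.0507). For Th, Slc6a2, Phox2a, Npy and Adrb3 the values ran from -0.89 to 0.41 and did not pass. With slide as a block 0 of 8 members passed, with values of 4.06 for Dbh and 2.37 for Gal.

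Sham females and sham males can also be set side by side, with no test. Dbh and Gal did not overlap between these groups and were higher in sham females, which held for 8.41% of all genes. All sham female arrays were scanned on 1 day and all male arrays on the other, so sex and scan day cannot be told apart here. Ordered by the mean, Gal ran from sham females (0.06 ± 0.20, SD, n = 3) through OOX males (-1.02 ± 0.47, n = 4) and OVX females (-1.69 ± 0.75, n = 3) to sham males (-2.24 ± 0.50, n = 4), and OVX females overlapped each male group. Adra2c ran from OVX females (-0.98 ± 0.60) through sham males (-1.65 ± 0.50) and OOX males (-2.57 ± 0.43) to sham females (-3.21 ± 0.82), and each neighbouring pair in this order overlapped.

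All 7 remaining adrenergic receptor genes were measured, and 0 passed in either sex by limma, with 2 in females and 0 in males at an unadjusted p under 0.05. The list median was 0.14 in females and 0.20 in males. Adra2b, a further alpha 2 receptor, was well above background on all arrays, with a female difference of 0.14 (adjusted p = 0.668) and a male one of 0.07 (adjusted p = 0.963). Adra1a, which signals through calcium, had a female difference of -0.59 (adjusted p = 0.0625), and the alpha 1 gene Adra1b had -0.45 (adjusted p = 0.339). The beta receptor gene Adrb1, whose product raises cAMP, had a female difference of 0.46 (adjusted p = 0.350). Adra2a was above background on 3 arrays.

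**Figure D3:**
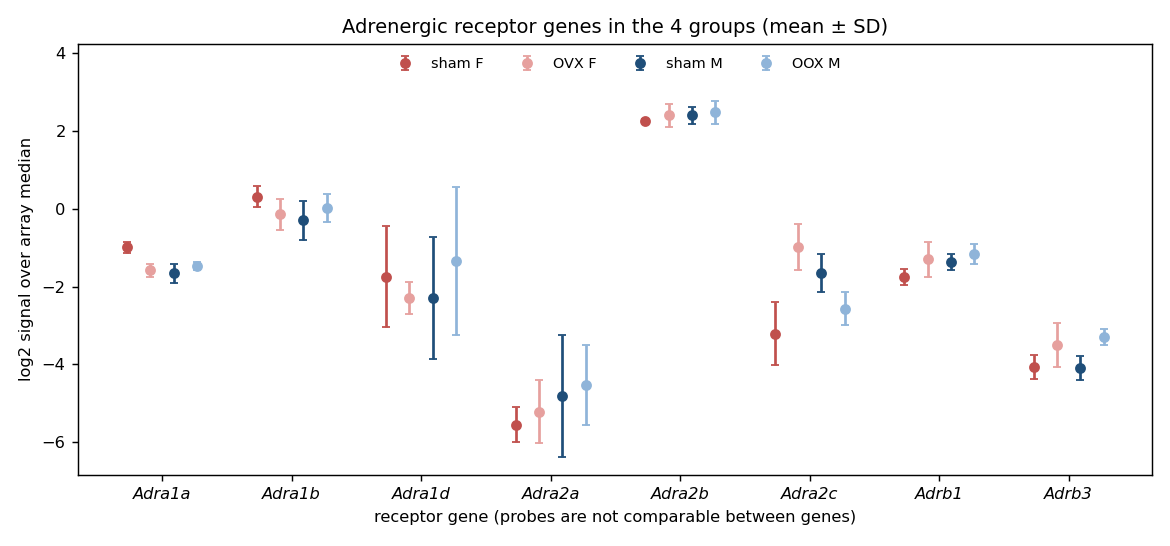
Log2 signal over the array median (vertical axis) of 8 adrenergic receptor genes, as mean ± SD of 3 arrays in each female group and 4 in each male group. Adra2c spans the range from -3.21 in sham females to -0.98 in OVX females, while Adra2b stays between 2.27 and 2.48. Levels of different genes come from different probes and are not compared.

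Genes that make, store and break down noradrenaline were all measured (14 of 14), and 0 passed in either sex by limma, with 0 in females and 2 in males at an unadjusted p under 0.05. The list median was -0.21 in females and 0.11 in males. Among the brightest were Cyb561, which supplies electrons to Dbh in storage granules, Slc29a4, a low-affinity monoamine transporter, and Qdpr, which regenerates the cofactor of Th. Their female differences were -0.22, -0.32 and -0.14 (adjusted p from 0.448 to 0.656), and Cyb561 was saturated on 10 arrays.

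Genes of noradrenergic neuron identity and of dense-core granules had 18 of 22 members measured. Hand1, a factor of sympathetic neurons, passed as lower in females (-0.79, limma adjusted p = 0.0410) but was above background on 0 arrays, so no fold is given. The granule genes Chgb, Scg2, Vgf and Chga had female differences of -2.13, -1.39, -0.64 and -1.07 (adjusted p = 0.0573, 0.153, 0.545 and 0.296). The list median was -0.30 in females and 0.28 in males. An unadjusted p under 0.05 was held by 5 genes in females and 1 in males, where 20.0% and 6.87% of all genes had one. The linear signals of the 18 genes, each over the array median, summed to 28.1 to 38.6 in sham females and 7.83 to 22.3 in OVX females. These sums did not overlap, as for 27.7% of all genes taken singly. In sham males the sums were 5.89 to 124.3 and in OOX males 9.43 to 55.1. The receptors for neuropeptide Y and galanin had 7 of 8 members measured, of which 0 passed in either sex by limma, with 1 in each sex at an unadjusted p under 0.05 and medians of 0.11 and 0.47. Galr2, Npy4r, Npy5r and Galr3 were the brightest, with female differences of -0.01, 0.11, 0.48 and -0.31 and male ones of 0.20, -0.07, 0.54 and 0.63. Signalling components downstream of adrenergic receptors had 32 of 34 members measured and 0 that passed in either sex by limma (3 in females and 1 in males at an unadjusted p under 0.05), with medians of -0.05 and 0.07. Gnas, the stimulatory G protein, was saturated on all 14 arrays, and Gnai2, Prkaca and Prkar1a had female differences of 0.10, -0.11 and -0.30.

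Positional genes and markers of other cells were set beside these genes, and their part in the results was not tested. Of 17 hindbrain positional genes 8 were measured and 5 fell in OVX females, among them Meis1 (-3.77, limma adjusted p = 0.0176), Irx5 (-1.37, adjusted p = 0.0401) and Irx2 (-2.26, adjusted p = 0.0401). Hoxa2, above background on all 3 sham female arrays and on 0 others, was 12.3-fold lower in OVX females. As for Dbh, that fold sets each OVX array at its lowest called signal and is not a strict lower limit. The linear signals of the 8 genes, each over the array median, summed to 18.9 to 27.6 in sham females, 2.25 to 3.24 in OVX females, 2.08 to 4.97 in sham males and 2.03 to 3.39 in OOX males. Sham females stood above every other array in this sum, as they did in Dbh and Gal. The share of all genes of which this held was not counted, so how common the pattern is was not tested. The OOX pool in which Dbh was above background had a hindbrain sum of 2.19.

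Neuron markers (15 of 16 measured) summed to 32.9 to 82.7 in sham females, 32.2 to 54.3 in OVX females, 24.1 to 184.8 in sham males and 33.3 to 108.3 in OOX males, and 1 of them, Nefh, fell in females (-1.52, limma adjusted p = 0.0401). Their median log2 difference was -0.69 in females and 0.40 in males, with 1 gene in females and 0 in males at an unadjusted p under 0.05. Sham female replicate 1 had a neuron sum of 32.9, within the OVX range, and its Dbh and Gal were above those of every OVX pool. Sham male replicate 1 had the highest neuron sum, 184.8, with Dbh at -6.59. OOX replicate 2 had the next highest, 108.3, with the only Dbh value above background outside sham females (-3.51) and the highest Gal among males (-0.48). The male difference without these 2 pools was 0.28 for Dbh (0.98 with them), 1.22 for Gal, -1.01 for Adra2c and 0.68 for Adrb3.

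**Figure D4:**
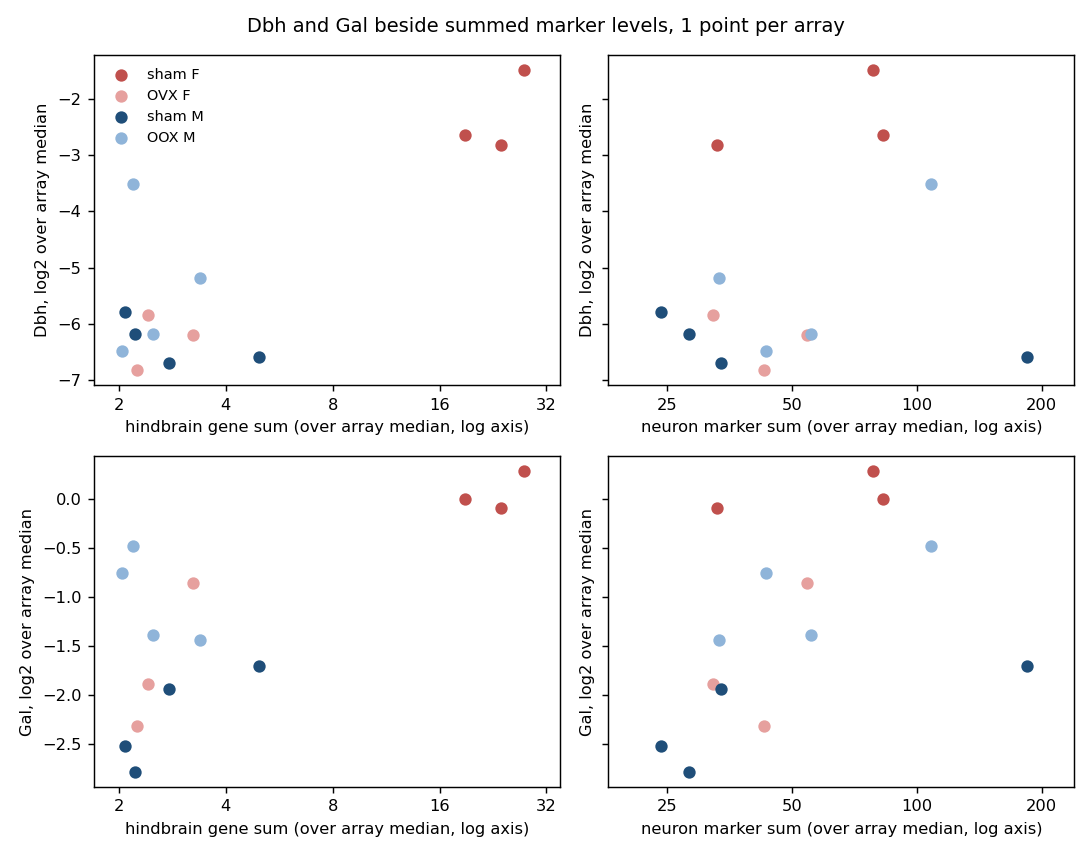
Log2 level of Dbh (upper) and Gal (lower) on each of the 14 arrays, against the summed signal of 8 hindbrain positional genes (left) and 15 neuron markers (right), each over the array median on a log axis. The 3 sham female arrays lie between 18.9 and 27.6 in the hindbrain sum and every other array at 4.97 or lower, while the neuron sums of the groups overlap.

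Among the other marker lists, 1 of 16 genes of other transmitter neurons rose in females (Slc17a8, a glutamate transporter, 1.09, limma adjusted p = 0.0401) and 1 of 8 fibroblast markers fell (Mgp, -0.82, adjusted p = 0.0488). An unadjusted p under 0.05 was held by 4 fibroblast markers in females and 0 in males (list medians -0.47 and 0.39). The same held for 3 of the transmitter genes in each sex (list medians -0.07 and 0.31). None of the 8 pineal, 11 myelin, 7 astrocyte, 11 CP epithelium and 9 endothelial and mural genes measured passed in either sex by limma (2, 1, 1, 1 and 2 in females and 1, 1, 0, 5 and 0 in males at an unadjusted p under 0.05). Of all genes, 20.0% in females and 6.87% in males had such a p, so the 5 of 11 epithelium markers in males exceeded that share. In the same order, the list medians were 0.45, 0.10, -0.44, -0.20 and 0.04 in females and 0.18, 0.37, 0.34, -0.30 and 0.06 in males. The epithelium markers Ttr, Folr1, Kcnj13 and Enpp2 were saturated on all 14 arrays.

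The genes whose level followed a member most closely over the 14 arrays were found among 12218 genes by Pearson correlation, as a description in which arrays share group and scan day. Dbh entered through the sham females alone and was not above background on 10 arrays, so its order mainly restates sham females against the rest. For Dbh they were Smoc2 (0.899), Gfra1 (0.899) and Kcnj14 (0.886), for Gal they were Macir (0.891), Syndig1 (0.863) and Dao (0.846), and for Adra2c they were Clcn2 (0.880), Tef (0.879) and Slco5a1 (0.875). Mean log2 levels in sham and OVX females were 0.50 and -2.96 for Gfra1 and 1.53 and -0.85 for Syndig1. Tef, a clock-controlled transcription factor, had means of 4.03 and 5.55 in sham and OVX females and 5.34 and 4.12 in sham and OOX males. For Th the closest were Hspb6 (0.970), Cacna1i (0.912) and Cdhr5 (0.898), for Slc6a2 they included Dpep1 (0.884) and Rbp7 (0.844), for Npy they were S100a9 (0.831), Cited1 (0.810) and Rasa3 (0.802), and for Adrb3 they were Hsd17b3 (0.838), Lamp3 (0.833) and Hjv (0.826). Phox2a was left out because no group had it above background on every array.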

How the data were processed

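RNA of lateral ventricle CP, pooled from 3 animals and labelled with Cy3 (200 ng per array), was hybridized to 14 1-colour rat arrays. The authors' deposited scanner files hold the intensity of each spot, background-subtracted by Agilent Feature Extraction 10.5.1.1. The deposited value table holds log2 values that the authors centred with BRB-ArrayTools, used as an alternative. Control and outlier spots were left out, spots of a probe were averaged on the log2 scale, and each array was centred on the median of its 30367 rat probes. Probes took gene names from RefSeq accessions, and the brightest probe stood for a gene (15154 genes, with 12363 unnamed probes). Depth does not apply to arrays, and the number of arrays limits the precision.

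Groups came from the labels and were compared with limma 3.58.1 (lmFit and eBayes, R 4.3.3) within each sex, and between sexes in 1 fit over all arrays, with Benjamini-Hochberg adjustment over genes and unnamed probes. Fits were tested on simulated data. For a gene not above background on any array of 1 group, the fold sets those arrays at their lowest called signal, which is not a strict limit. The members, lists and tests were chosen with earlier results of these data known. Every member is named; of a list, the genes that passed (up to 4, by p) and the 4 others with the highest mean. Some genes that this rule names are not reported here. Also tried were quantile scaling and scaling to the 75th percentile, normexp with an offset of 50 (on the median signal of each spot in place of the mean), outlier spots kept, a filter on dim probes, probe means, the value table, array weights, a block for slide (5), for scan day (2) or for replicate number, 1 fit over all arrays, the methods' t-test, and each array left out. Tables and figures were made with pandas 2.3.3, numpy 2.4.6 and matplotlib 3.10.9 in Python 3.11.15.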

Additional observations from a re-analysis of the deposited data

Results flagged for a closer look

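The change in Gal after gonad removal differed between the sexes in the main fit (male minus female effect 2.97 on the log2 scale, limma adjusted p = 0.0398). The other probe of Gal gave 3.04 and did not pass (adjusted p = 0.0997). For Dbh the fitted value was 4.95 (adjusted p = 0.0373), from arrays mostly not above background, and under normexp it was 0.70 and did not pass (adjusted p = 0.303). The values by pool are given above, and 0 members passed with slide as a block.

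Of 44 male groups of 4 arrays examined for a value far from the others, 8 were picked out, where chance picks about 1 in 20, and these lists share arrays. The highest sham male sum was 184.8 for neuron markers, 124.3 for noradrenergic neuron identity, 61.5 for other transmitter neuron genes, 131.2 for astrocyte markers and 375.7 for Schwann cell and oligodendrocyte markers, all over the array median. The lowest sham male sum of endothelial and mural markers was 138.7. The highest OOX sum was 139.2 for astrocyte markers and 2.83 for neuropeptide Y and galanin receptors. None of the 8 members had such a value in a male group.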

How the results depend on the processing

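In females 3 members passed (Dbh, Gal and Adra2c). The count was 2 (Dbh and Adra2c) under scaling to the 75th percentile and in the value table, 1 under quantile normalization (Dbh), 1 under normexp (Gal) and 1 with the filter on dim probes (Dbh), and 0 with a replicate block, slide or scan day as a block, slide as a block in the fit over all 14 arrays (added after seeing the data) and the methods' t-test. It was 0 to 1 without any 1 array. Over all genes, 947 passed, against 64 under quantile normalization, 112 under normexp, 188 with the filter, 14 with scan day as a block, 3 by the methods' t-test, 231 in 1 fit over all arrays, 2 to 951 without any 1 array, and 0 with slide or the replicate number as a block. In males the count was 0 under every setting. For the difference between the sexes it was 2 (Dbh and Gal), with 1 (Dbh) under scaling to the 75th percentile, 0 with a replicate block, slide or scan day as a block, and 0 to 2 without any 1 array. The 2 were Dbh and Adra2c under probe means, and Gal and Adra2c under normexp. Adra2c passed for this difference under quantile normalization, normexp, probe means, the filter and array weights (adjusted p from 0.0281 to 0.0485). Same-numbered pools deviated from their group means with correlations from -0.02 to 0.14 in females and from -0.31 to 0.14 in males. Differently numbered pools gave -0.14 to 0.06 in females and -0.30 to 0.42 in males. Replicate numbers were not shown to pair the samples, and in females these values do not settle it. The causes of these losses were not tested.

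Dbh and Gal stayed negative and Adra2c positive in females under every setting run. Signs changed for members that had not passed, some of them well away from 0 before (male Dbh 0.98, male Adrb3 0.80 and female Adrb3 0.57). In females Phox2a was -0.17 under quantile normalization, -0.034 under normexp, -0.047 with slide as a block (in either fit) and -0.74 with a block for scan day, and reached -0.30 to 0.45 with 1 array left out, and Adrb3 was -0.049 with slide as a block (in either fit). In males normexp gave -0.085 for Dbh, 0.068 for Th, -0.11 for Phox2a and -0.074 for Adrb3. Male Th was 0.018 with slide as a block and 0.12 with that block in the fit over all arrays, 0.0034 in the value table, 0.15 without sham replicate 1 and OOX replicate 2 together, and -0.15 to 0.14 with 1 array left out. Male Slc6a2 was 0.18 with slide as a block, 0.030 for probe means and 0.23 for its other probe. With 1 array left out, male Phox2a ran from -0.28 to 0.99 and male Npy from -0.54 to 0.12. For the difference between the sexes, Slc6a2 was -0.045 under scaling to the 75th percentile, -0.0033 in the value table, -0.017 with scan day as a block, -0.028 with array weights, -0.097 without those 2 male arrays and -0.058 to 0.14 with 1 array left out. Phox2a was -0.081 and Adrb3 -0.15 under normexp, and with 1 array left out they ran from -0.33 to 0.94 and from -0.029 to 0.54.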
